A study of Mus musculus with 3 samples.

Results

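Neutrophils were a small population among the immune cells of the healthy mouse kidney. They were taken as every cell whose deposited cluster label began with Neutrophil, which gave 273 of 20266 cells, or 1.35% (95% exact binomial interval, 1.19 to 1.52). The 714 cells labelled as monocytes were the main point of comparison. All mice were untreated male wild-type C57BL/6J mice aged 10 weeks. After perfusion, each kidney was divided into cortex, outer part of the medulla (OM) and inner part of the medulla (IM), and sorted CD45-positive leukocytes were profiled in droplets, cell by cell. The work was repeated at 3 facilities, in Aachen, in Bonn and in Hamburg. Each facility contributed a cortex, an OM and an IM library, so the design held 9 libraries and 3 datasets. The dataset was the replicate, although in the gene tests the OM came from 1 dataset only. How many mice stood behind a library was not given in the sources used here, so p-values describe the spread between these datasets only, and differences between facilities in mice, kit and handling cannot be told apart.

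Neutrophils are short-lived granulocytes that leave the bone marrow with their granule proteins already made. They find sites of injury through receptors for chemokines and bacterial peptides, and they kill microbes with granule enzymes, with oxidants made by the NADPH oxidase and with the calcium-binding proteins S100A8 and S100A9. Genes of the primary and secondary granules are transcribed in marrow precursors and are largely silent in circulating cells, whereas tertiary granule genes, Cxcr2 and the cytokine genes Il1b and Cxcl2 can be transcribed in mature cells. The medulla of the kidney is hypoxic and hyperosmotic, which is why the compartments were compared.

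The neutrophils were unevenly spread over the libraries. Hamburg held 197 of them, Bonn 51 and Aachen 25, in datasets of 6961, 6158 and 7147 cells. The shares were 2.83% in Hamburg (2.45 to 3.25), 0.828% in Bonn (0.617 to 1.09) and 0.350% in Aachen (0.226 to 0.516), so that the intervals of the 3 datasets did not overlap. Hamburg alone supplied 72.2% of all neutrophils. Intervals here and below cover counting error only.

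Neutrophils yielded less RNA per cell than monocytes. In Aachen, the median was 485 UMIs (unique molecular identifiers, 1 per captured RNA molecule) in neutrophils and 1709 in monocytes. The corresponding medians were 1920 and 5343 in Bonn, and 2741 and 4161 in Hamburg. Neutrophils had the lower median in each of the 9 libraries, and they had a lower median number of detected genes than monocytes in every dataset (237, 776 and 1115 genes in Aachen, Bonn and Hamburg). The share of mitochondrial UMIs was low, with medians of 0.476%, 0.428% and 0.553%. Because of this difference in depth, levels are given below as UMIs per 10000 UMIs of the summed cells.

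**Figure D1:**
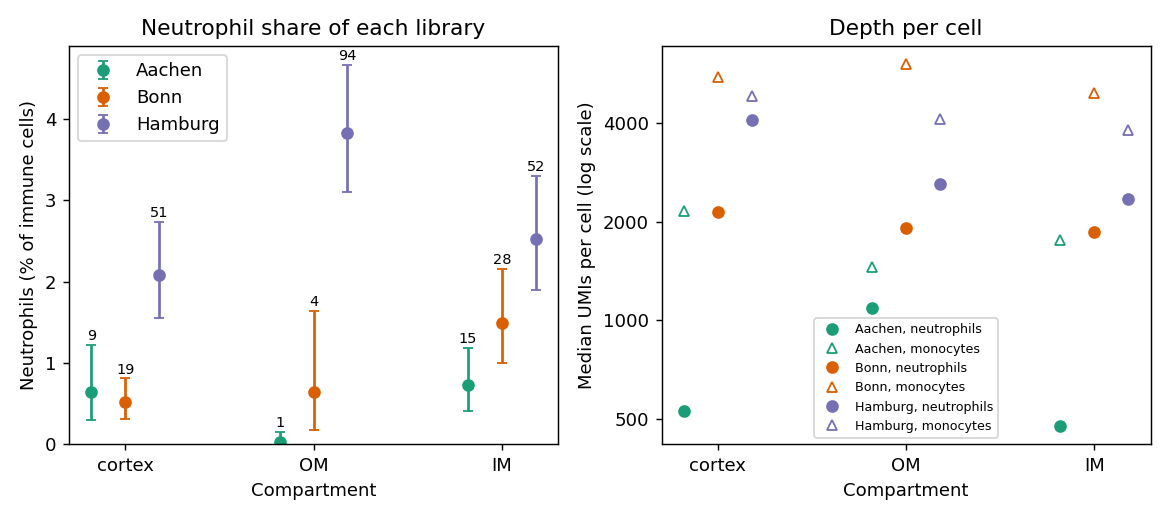
Left, share of neutrophils among the immune cells of each library in percent (points), with exact 95% binomial intervals as error bars and the number of neutrophils above each. Right, median UMIs per cell on a log axis for neutrophils (filled circles) and monocytes (open triangles); Hamburg held the largest shares in each compartment, and the neutrophil median lay under the monocyte median in every library.

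The labelled cells held the neutrophil markers, which is no independent check, because the paper annotated neutrophils by S100a8. S100a8 and S100a9, the subunits of calprotectin (chr3:90668978-90670035 and chr3:90692632-90695721, mm10), and Retnlg, a resistin-like protein of neutrophils (chr16:48872621-48874496), were detected together in 220 of the 273 cells, and at least 2 of them were detected in 264 (96.7%). Of the 19993 other cells, 7 held all 3 markers, and 3 of those 7 were labelled monocytes. The S100a9 level was 362, 410.3 and 258 UMIs per 10000 in Aachen, Bonn and Hamburg, and the monocyte mean was 0.345 ± 0.327 (SD, n = 3 datasets). S100a8 followed with 436, 323 and 186 in neutrophils against a monocyte mean of 0.454 ± 0.558. S100a8 and S100a9 together made up 7.98% of all neutrophil UMIs in Aachen, 7.33% in Bonn and 4.44% in Hamburg. S100a9 was the gene with the highest mean level in neutrophils.

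Few UMIs of the neutrophil markers lay in cells that should lack them. T and B cells held an S100a9 UMI in 0.153% of cells in Aachen, 0.0293% in Bonn and 0.562% in Hamburg, at median depths of 864.5, 2935 and 2966 UMIs. After every cell was thinned to 300 UMIs, 88.0%, 96.1% and 88.3% of neutrophils held S100a9, against 0.0382%, 0% and 0.253% of T and B cells. Retnlg was then found in 44.0%, 60.8% and 48.2% of neutrophils and in at most 0.0562% of T and B cells. No cell was too shallow for this thinning.

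**Figure D2:**
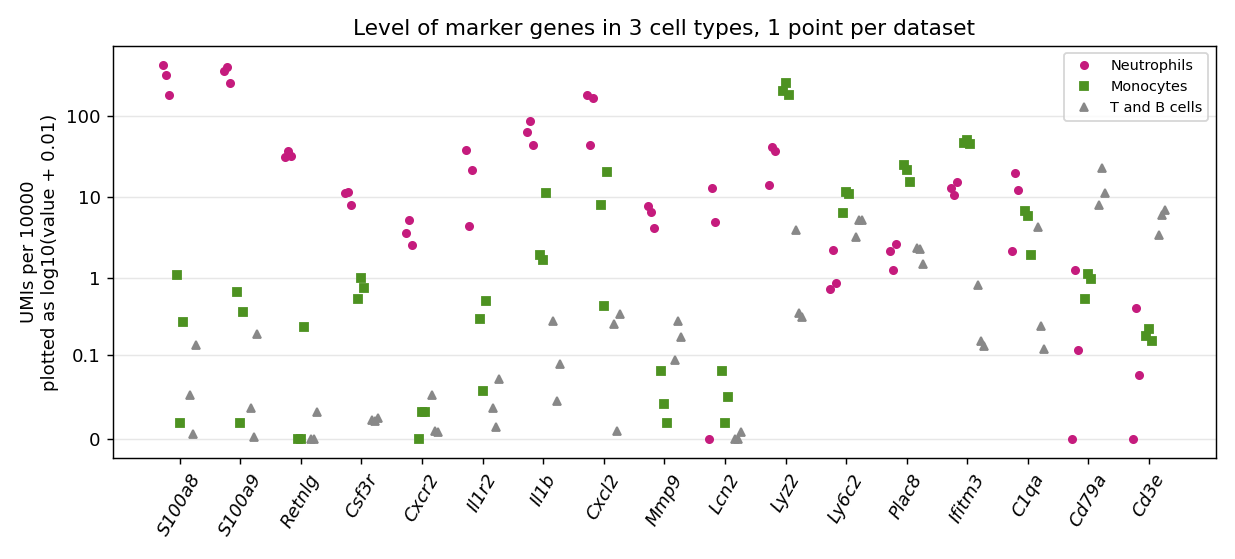
Level of selected genes in UMIs per 10000 (vertical axis, plotted as log10 of the value plus 0.01) in neutrophils, monocytes and T and B cells, 1 point per dataset. S100a8, S100a9, Retnlg, Csf3r, Cxcr2, Il1r2, Il1b, Cxcl2 and Mmp9 lay higher in neutrophils than in monocytes in all 3 datasets, and Lyz2, Ly6c2, Plac8 and Ifitm3 lay lower.

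The comparison with monocytes is descriptive, because the clusters were built from the same genes. Of 3182 genes with a mean of at least 0.5 UMIs per 10000 in either cell type, 575 (18.1%) were higher in neutrophils in all 3 datasets and 1284 (40.4%) were lower. Among genes with at least 5 UMIs per 10000 in the neutrophils of every dataset, 78 were higher than in monocytes in each dataset. The 25 with the largest ratio were S100a9, S100a8, Retnlg, Ifitm1, Hdc, G0s2, Slpi, Mxd1, Cxcl2, Csf3r, Il1b, Grina, S100a11, Tnfaip2, Txn1, Ccrl2, Srgn, Clec4e, Pim1, Litaf, Pglyrp1, Nfkbia, Pnrc1, Adipor1 and Msrb1.

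Of the 20 neutrophil identity genes, 19 reached the 0.5 level and 18 of these were higher in neutrophils in all 3 datasets. Hdc, which makes histamine, averaged 11.1 ± 3.86 UMIs per 10000 in neutrophils and 0.193 ± 0.143 in monocytes. G0s2, an inhibitor of lipolysis, averaged 25.2 ± 2.38 against 0.533 ± 0.401, with little spread between datasets. Slpi, a protease inhibitor that shields tissue from neutrophil elastase, averaged 40.6 ± 21.4 against 1.29 ± 0.738. Il1r2, the decoy receptor of interleukin 1, differed widely between datasets, with 38.3 in Aachen, 4.40 in Bonn and 21.8 in Hamburg. Ly6g, the antigen commonly used to sort mouse neutrophils, was nearly undetected: it gave 20 UMIs in 7 cells, all in Hamburg.

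Most genes of receptors that guide neutrophils had a higher summed level in neutrophils than in monocytes. Of the 9 chemoattractant receptor genes that reached the 0.5 level, 8 were higher in neutrophils in all 3 datasets and 1 was lower. The shares among all genes were 18.1% higher and 40.4% lower. Csf3r (chr4:126024550-126044440), the receptor of the neutrophil growth factor G-CSF, averaged 10.3 ± 1.91 UMIs per 10000 in neutrophils and 0.754 ± 0.221 in monocytes. Cxcr2, the receptor for CXCL1 and CXCL2, was present at 3.55, 5.16 and 2.53 in Aachen, Bonn and Hamburg, and at 0.0122 or less in monocytes. Cxcr4, the receptor that holds neutrophils in the marrow and rises on aged cells, was present at 12.1, 3.52 and 4.08. Cxcr2 UMIs were found in 148 of the 273 neutrophils and Cxcr4 UMIs in 170. Ccr1 (7.81, 4.28 and 5.73), C5ar1, the complement C5a receptor (8.52, 4.04 and 4.69), and the formyl peptide receptors Fpr1 and Fpr2 also lay higher than in monocytes. The receptor gene that was lower was Ltb4r1, which binds leukotriene B4 (0, 0.938 and 0.327 against 0.599, 1.03 and 0.886). The Bonn values were close. The Aachen value rests on 25 neutrophils with a median of 485 UMIs, too few for the 0 to show a lower level. Other low Aachen values that enter such counts over the 3 datasets also stand for few UMIs.

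Adhesion genes were found on both sides, with 4 of 11 higher in neutrophils in all datasets and 2 lower. Among all genes, 18.1% were higher and 40.4% lower. The genes of the integrins Itgal and Itgb2 did not have a common direction across datasets, whereas Cd44, a hyaluronan receptor, lay higher in neutrophils in each (8.52, 5.04 and 6.22 against 3.06, 3.57 and 4.43). Siglecf, a lectin of eosinophils that also marks some tissue neutrophils, gave few UMIs, 0.293 per 10000 in Bonn and 0.0526 in Hamburg.

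Granule genes of the primary and tertiary classes differed. Of the 7 primary granule genes, Elane and Bpi were at 0 in all 273 neutrophils, which allows a share of cells with a UMI of up to 1.10%. Mpo (myeloperoxidase), Ctsg (cathepsin G), Prtn3 (proteinase 3) and Ms4a3 were at 0 in Aachen and Bonn, and at 0.0386 UMIs per 10000 or less in Hamburg. Only Ctsc, a protease that is also made by mature myeloid cells, reached the 0.5 level, and it was lower than in monocytes in all 3 datasets.

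Of the tertiary granule genes, in contrast, 6 of 9 were higher in neutrophils in all 3 datasets and none was lower. Among all genes, 18.1% were higher and 40.4% lower. Mmp9, or gelatinase B, was found at 7.81, 6.56 and 4.13 UMIs per 10000 in neutrophils and at 0.0599 or less in monocytes. Mmp9 UMIs were present in 189 of the 273 neutrophils. They were found in 25 of 28 neutrophils in the Bonn IM library and in 66 of 94 in the Hamburg OM library. In the shallower Aachen libraries, they were found in 5 of 9 in the cortex and in 3 of 15 in the IM. Adam8, a surface metalloprotease, was among the other 5, as were Fpr1 and Fpr2, which also count as chemoattractant receptors above. Mmp8 (neutrophil collagenase), a secondary granule gene, lay at 2.13, 2.23 and 1.08.

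Of the secondary granule genes, Camp, Ngp and Ltf were concentrated in a few cells, whereas Mmp8 gave UMIs in 67 of the 273 neutrophils. Camp, the precursor of the cathelicidin peptide (chr9:109847379-109849617), gave 172 UMIs, all in 1 cell of the Hamburg OM library. The same cell held 325 of the 594 UMIs of Ngp (neutrophilic granule protein, chr9:110419747-110423012) and 80 of the 82 UMIs of Ltf (lactotransferrin, chr9:111019271-111042767), together with 1249 UMIs of S100a8 and S100a9. A pair of cells of the Bonn cortex library held the remaining Ngp apart from 1 UMI, with 174 and 94 UMIs. The first of these held 0 C1q and 0 Cd74 UMIs, and the other held 222 and 636. Lcn2, the siderophore-binding lipocalin, was more widely spread, with UMIs in 10 of 19 and 15 of 28 neutrophils of the Bonn cortex and IM libraries and in 22 of 51, 39 of 94 and 25 of 52 of the Hamburg cortex, OM and IM libraries. No Lcn2 UMI was seen in the 25 Aachen neutrophils, where the median depth was lowest. Lyz2, lysozyme, was lower in neutrophils than in monocytes in all datasets (14.2, 42.1 and 37.6 against 204, 257 and 184).

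**Figure D3:**
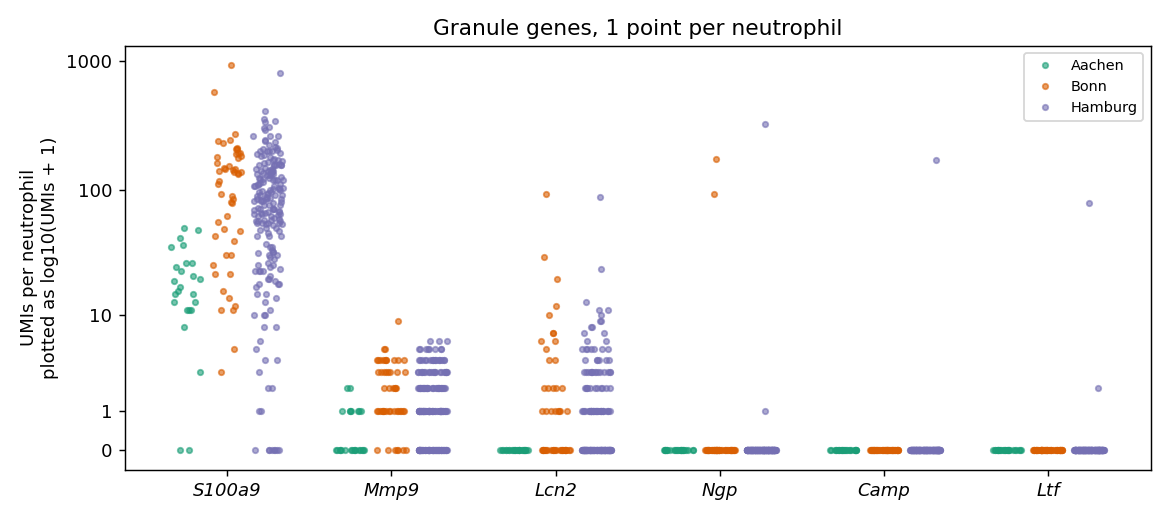
UMIs of 6 genes in each of the 273 neutrophils (vertical axis, plotted as log10 of UMIs plus 1), 1 point per cell, split by dataset. S100a9 and Mmp9 were spread over most of the 273 cells, although Mmp9 was sparser in Aachen. Ngp, Camp and Ltf were high in 1 Hamburg cell, with 325, 172 and 80 UMIs, and Ngp also in a pair of Bonn cells with 174 and 94 UMIs.

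Subunits of the NADPH oxidase were present in neutrophils of every dataset. Ncf1, the organizer subunit, lay at 2.84, 3.81 and 3.05 UMIs per 10000 against 0.659, 1.32 and 1.30 in monocytes, and the GTPase gene Rac2 was likewise higher in all 3 datasets. Cybb, the catalytic subunit, was the member that was lower in all 3, with 1.42, 5.04 and 6.42 against 5.33, 11.5 and 11.7. Of 10 pattern recognition genes, 5 were higher in each dataset and none was lower, beside 18.1% higher and 40.4% lower among all genes. The 5 included Cd14, the co-receptor for lipopolysaccharide (7.10, 8.38 and 11.9), Nlrp3, an inflammasome sensor (1.42, 3.05 and 5.60), and Clec4e, or Mincle (16.3, 5.98 and 8.94).

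Cytokine and chemokine transcripts were abundant although the mice were untreated. Of 13 such genes that reached the 0.5 level, 10 were higher in neutrophils than in monocytes in all datasets and 1 was lower. The shares among all genes were 18.1% higher and 40.4% lower. Il1b (chr2:129364570-129371139) lay at 64.6, 88.7 and 44.6 UMIs per 10000 in Aachen, Bonn and Hamburg, against 1.92, 1.67 and 11.3 in monocytes. Cxcl2, the chemokine that recruits further neutrophils (chr5:90903871-90905938), lay at 186, 44.4 and 167 against 7.97, 0.440 and 20.4. Resident macrophages held Il1b at 4.16, 3.74 and 28.9, and Cxcl2 at 2.87, 0.859 and 19.4, all below the neutrophil levels. Summed over the list, Hamburg gave 300 in neutrophils, 187 in resident macrophages and 79.6 in monocytes. Ccl4 (35.5, 16.4 and 33.5), Ccl3 (22, 7.62 and 11.4), Ccl6 (30.5, 19.2 and 23.8) and Ptgs2, the inducible cyclooxygenase (4.26, 10.6 and 5.35), were higher too. The member that was lower was Tgfb1 (1.42, 2.75 and 2.88 against 2.94, 4.40 and 5.63). After thinning to 300 UMIs per cell, an Il1b UMI was found in 64%, 86.3% and 70.6% of neutrophils in Aachen, Bonn and Hamburg, and in 6.74%, 4.33% and 21.2% of monocytes. A Cxcl2 UMI was found in 92%, 52.9% and 92.4% of neutrophils and in 12.4%, 1% and 25.8% of monocytes. Both stayed at or under 0.562% of T and B cells. Without thinning, the neutrophil shares were 88%, 98.0% and 98.0% for Il1b, and 92%, 66.7% and 99.5% for Cxcl2.

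Enzymatic digestion is known to induce stress genes, and these were therefore listed apart. Of 17 immediate early and heat shock genes, 4 were higher in neutrophils in all 3 datasets and 3 were lower, beside 18.1% and 40.4% of all genes. Summed over the list, the neutrophil level was 159.7 UMIs per 10000 in Aachen, 249.9 in Bonn and 373 in Hamburg. In the same order, monocytes were at 278, 108 and 363 and resident macrophages at 253, 102 and 544. The order of the cell types thus differed between datasets. Hspa1a, an inducible chaperone, was at 7.81, 5.98 and 26.5, and Fos at 10.6, 38.3 and 39.7. The part of the preparation in the cytokine levels was not tested. Of the NF-kB feedback genes, 5 of 10 were higher in neutrophils in each dataset, among them Nfkbia (55.4, 13.1 and 33.4), which encodes an inhibitor of NF-kB.

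Interferon-inducible genes were found on both sides of the comparison with monocytes. Of 14 at the 0.5 level, 5 were higher and 7 lower in neutrophils in all datasets, beside 18.1% higher and 40.4% lower among all genes. Of 9 survival and apoptosis genes, 4 were higher and 2 lower. Ifitm1, an antiviral membrane protein, lay at 29.1, 17.1 and 6.09 UMIs per 10000 and at 0.240 or less in monocytes, whereas its family member Ifitm3 lay at 12.8, 10.6 and 15.5 against 47.4, 50.4 and 44.9. Mcl1, the survival factor on which neutrophils depend, lay at 17.7, 17.7 and 22.1 against 3.95, 6.72 and 14.3. Cebpb, a transcription factor of emergency granulopoiesis, lay at 119, 29.9 and 61.7 against 33.8, 19.4 and 44.9. Of the proliferation genes, 3 of 10 reached the 0.5 level, and Mki67 and Top2a gave 12 and 11 UMIs in all neutrophils together.

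By the same rule in the other direction, 137 genes with at least 5 UMIs per 10000 in the monocytes of every dataset were lower in neutrophils. The 10 with the smallest ratio were Crip1, Plac8, S100a4, Ly6c2, Lyz2, Tmsb10, Ms4a6c, Vim, Lgals3 and Rpl36al. Ly6c2, the antigen of classical monocytes, averaged 1.27 ± 0.836 in neutrophils and 9.60 ± 2.88 in monocytes, and Plac8 averaged 1.98 ± 0.691 and 20.8 ± 4.90. Of the 10 monocyte markers, 9 were lower in neutrophils in all datasets. Genes of glycolysis and hypoxia (1 of 12 higher, 4 lower) and of the osmotic response (2 of 6 higher, 1 lower) are to be read against the 18.1% higher and 40.4% lower among all genes.

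Markers of other cells were also measured in the neutrophils. The 9 resident macrophage markers summed to 98.7, 397 and 290 UMIs per 10000 in Aachen, Bonn and Hamburg, against 1291, 1268 and 1089.7 in resident macrophages. The 6 T cell markers summed to at most 1.82, the 6 B cell markers to at most 7.62 and the 6 natural killer cell markers to at most 0.996. The sums were at most 1.83 for dendritic cells, 0.736 for ILC2, 0.682 for eosinophils, 0.410 for platelets, 3.63 for kidney tubule and 0.132 for endothelium, and the 4 measured erythroid markers were at 0. The eosinophil genes Epx and Prg2 were among the 4 eosinophil markers at 0. The 6 basophil and mast cell markers summed to 1.29 in Hamburg and 0 in Aachen and Bonn.

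A pair of Hamburg cells went against the label. One OM cell and one IM cell held 54 and 44 UMIs of the basophil and mast cell markers Mcpt8, Cpa3, Fcer1a, Ms4a2, Prss34 and Gata2, and 0 UMIs of S100a8 and S100a9. The OM cell also held 35 Il13 and 9 Il4 UMIs, and the IM cell held 30 Il4 UMIs. Both cells were kept because the label chose the members.

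Complement C1q transcripts, which define resident macrophages, were present in many of the Hamburg neutrophils. At least 5 UMIs of C1qa, C1qb and C1qc together were found in 28.4% of Hamburg neutrophils (22.2 to 35.3), in 15.7% of Bonn neutrophils (7.02 to 28.6) and in 4% of Aachen neutrophils (0.101 to 20.4). In the monocytes these shares were 7.08%, 11% and 15.7%. In T and B cells, which lack C1q, they were 0.449%, 0.615% and 5.95%. The Hamburg and Bonn shares in neutrophils therefore lay above the level seen in T and B cells of their dataset, while the Aachen share did not.

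Neutrophils with C1q were deeper cells, most of which still held S100a8 and S100a9, at a lower level relative to depth. In Hamburg, the median depth was 5079.9 UMIs in neutrophils with at least 5 C1q UMIs and 2411 in those with none, while the median of S100a8 and S100a9 together was 121.5 and 147.5 UMIs. The median of Cd74, the invariant chain of MHC class II that macrophages and B cells express, was 188.5 and 2. None of these cells was called a doublet. The doublet score made calls for 0.187% of the Hamburg cells, too few to count as working there. Calls were also few in the Aachen cortex (0.215%) and IM (0%) and in the Bonn OM (0.805%) and IM (0.641%). Of the 402 calls in all libraries, 186 came from the Aachen OM and 183 from the Bonn cortex, where the score thresholds were lowest. The origin of the C1q UMIs was not tested. The Hamburg values were rarely whole numbers, for a reason not given in the sources used here, so C1q shares may not be comparable between Hamburg and the other datasets.

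Within Hamburg, the share of neutrophils with at least 5 C1q UMIs was 51% in the cortex (36.6 to 65.2), 23.4% in the OM (15.3 to 33.3) and 15.4% in the IM (6.88 to 28.1). In Bonn it was 15.8% in the cortex and 17.9% in the IM, based on 19 and 28 cells. The share was lower in the medulla than in the cortex by 31.6, 6.86 and 11.1 percentage points in Hamburg, Bonn and Aachen, where the Bonn and Aachen OM libraries held 4 neutrophils and 1. This difference, looked for after the data had been seen, did not pass a two-sided exact permutation test of the compartment labels within datasets (p = 0.0741, adjusted p = 0.296, smallest possible p = 0.0370, n = 3 datasets).

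**Figure D4:**
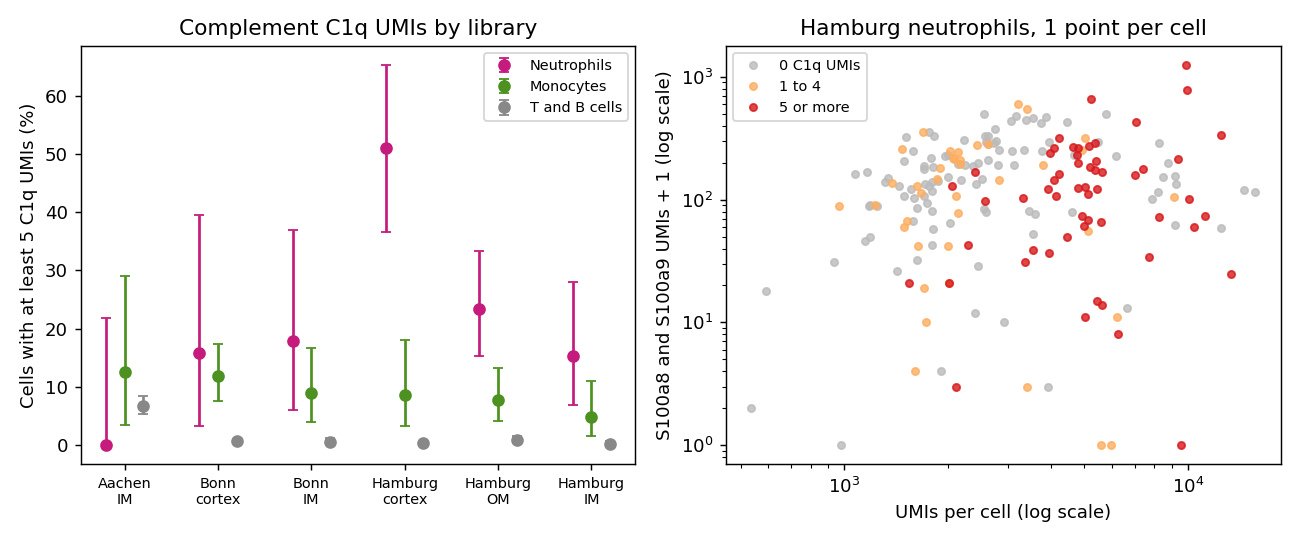
Left, share of cells with at least 5 C1q UMIs in the 6 libraries that held 10 or more neutrophils, in percent with exact 95% binomial intervals, for neutrophils, monocytes and T and B cells. Right, total UMIs (log axis) against S100a8 and S100a9 UMIs plus 1 (log axis) in each Hamburg neutrophil, coloured by C1q UMIs; cells with 5 or more C1q UMIs had a median depth of 5079.9 UMIs and those with none 2411.

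The genes higher than in monocytes were also looked up without every neutrophil that held a C1q UMI, 95 of the 197 in Hamburg. Then 99 genes met the rule for a higher level than in monocytes, and all 25 genes named above were among them. With the mean over cells in place of the sum, 111 genes met the rule, and its 25 largest ratios shared 15 genes with those named above. Without the neutrophils that held a C1q UMI, the Hamburg level of S100a9 was 317 UMIs per 10000 in place of 258. That of Cxcl2 was 182 in place of 167 and that of Il1b 47.6 in place of 44.6. The summed resident macrophage markers were then 105 in place of 290.

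The first question of the design was whether neutrophils were distributed unevenly over the compartments. In the cortex, the shares of immune cells were 0.645%, 0.519% and 2.08% in Aachen, Bonn and Hamburg. The OM shares were 0.0272%, 0.644% and 3.83%. The IM shares were 0.723%, 1.49% and 2.53%. The IM share was the higher one in all 3 datasets compared with the cortex, by 0.0777, 0.976 and 0.445 percentage points, while the OM share was lower than the cortex share in Aachen and higher in Bonn and Hamburg. The Aachen OM library held 1 neutrophil among 3677 cells (exact interval, 0.000689 to 0.151%).

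The IM share exceeded the cortex share by 0.50 ± 0.452 percentage points (SD of the 3 paired differences), a difference that was not tested on its own. The mean cortex share was 1.08 ± 0.869% (SD, n = 3). The OM share averaged 1.5 ± 2.04% and the IM share 1.58 ± 0.906%. The medulla exceeded the cortex by 0.459 ± 0.688 percentage points, which did not pass a two-sided exact permutation test (p = 0.370, adjusted p = 0.741, n = 3 datasets, 27 arrangements). The spread among the 3 compartments gave p = 0.722 in an exact permutation test (adjusted p = 0.852). Of neutrophils and monocytes together, neutrophils made up 25.4 ± 16.6% in cortex libraries, 18.3 ± 17.7% in OM libraries and 29.8 ± 5.34% in IM libraries. The difference between medulla and cortex on this scale was -1.31 ± 9.31 percentage points (exact permutation p = 0.852, adjusted p = 0.852). The first of these differences was negative as a share of myeloid cells (-0.38 points) or on a log2 scale (-0.07). The second was positive without Aachen (1.39 points) or without Hamburg (1.37 points). With shares, a change in neutrophils and a change in the other immune cells cannot be told apart.

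The second question was whether neutrophils expressed different genes in the medulla. Libraries with at least 10 neutrophils entered the fit, which left the cortex and IM libraries of Bonn and Hamburg, the Hamburg OM library and the Aachen IM library. All tests of the OM, and the OM part of the medulla comparison, therefore rest on 1 library with 94 cells. Their p-values measure no spread of the OM between datasets. Of 2940 genes tested with edgeR's quasi-likelihood test, 0 (0%) passed a Benjamini-Hochberg adjusted p of 0.05 between medulla and cortex, and 110 (3.74%) had an unadjusted p under 0.05. DESeq2 also called 0 genes and gave 5 with an unadjusted p under 0.05. Between IM and cortex, 0 genes (0%) passed, with 144 at an unadjusted p under 0.05 in edgeR and 8 in DESeq2, which called 0. This design left 1 residual degree of freedom. The Aachen library, the only one of its dataset, was absorbed by the dataset term, so the tests rest on Bonn and Hamburg.

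Neutrophil identity genes gave no call between the compartments tested as medulla and cortex. S100a9 lay at 454 and 365 UMIs per 10000 in the cortex and IM of Bonn. In Hamburg, it was at 177 (cortex), 289 (OM) and 307 (IM). Bonn thus had its higher value in the cortex, where Hamburg had its lowest, and 1 of the 19 Bonn cortex cells held 926 of the 3910 S100a9 UMIs of that library. Retnlg lay at 34.2 and 41.2 in Bonn and at 27.3, 35.0 and 35.1 in Hamburg. Over the 19 identity genes tested, 0 passed and the median log2 difference between medulla and cortex was 0.45, against -0.03 over all genes tested. It was 0.20 when cells with C1q UMIs were left out, against -0.02 over all genes tested there. Between IM and cortex, the median of the identity genes was 0.54 with all cells and 0.59 without those holding C1q UMIs. In the latter setting, 1 identity gene passed, with a higher value in the IM. Of all 1524 genes tested there, 1 was higher and 5 were lower.

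**Figure D5:**
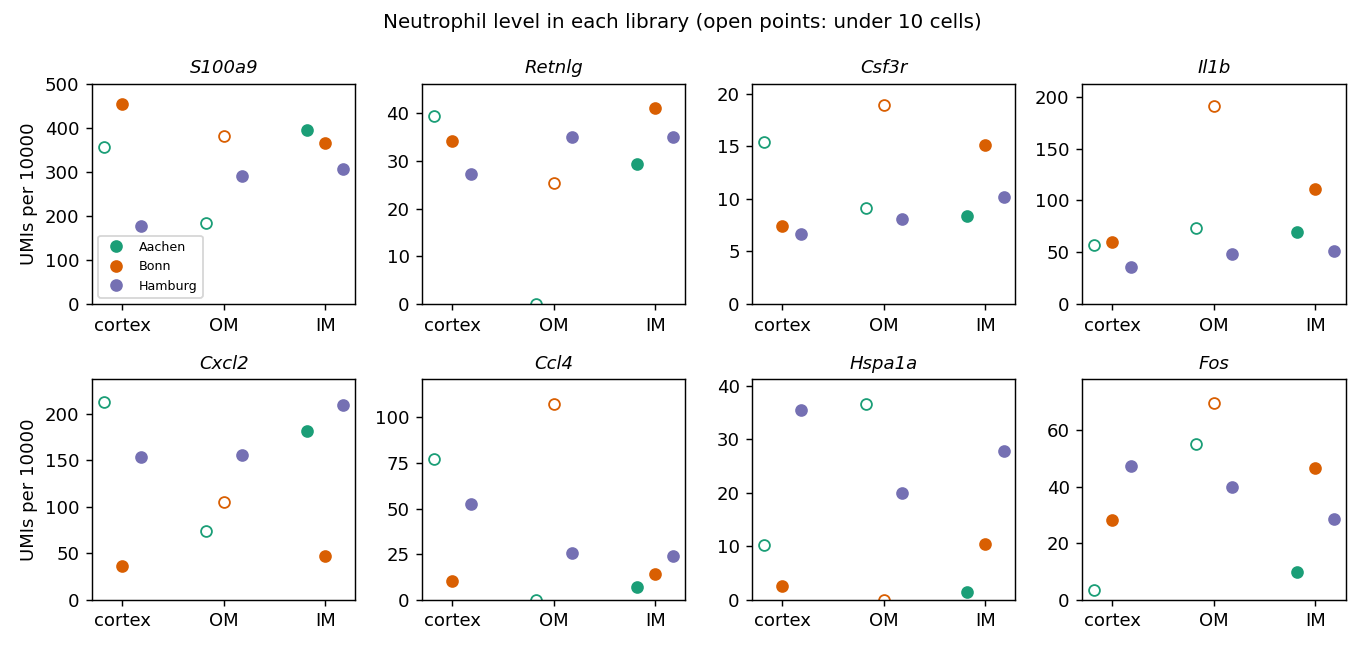
Level of 8 genes in the summed neutrophils of each library, in UMIs per 10000, with 1 point per library coloured by dataset and open points for libraries with under 10 neutrophils. Csf3r and Il1b lay higher in the IM than in the cortex in both Bonn and Hamburg, while Csf3r lay lower in the IM in Aachen. S100a9 was lower in the IM than in the cortex in Bonn and higher in Hamburg.

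Genes of neutrophil function likewise gave no call between medulla and cortex. Il1b lay at 59.9 and 111 UMIs per 10000 in the cortex and IM of Bonn, and at 35.3, 47.8 and 51.2 in the cortex, OM and IM of Hamburg. Csf3r lay at 7.42 and 15.2 in Bonn and at 6.62, 8.09 and 10.2 in Hamburg. For both genes, the IM value exceeded the cortex value in Bonn and Hamburg, without passing the test. In Aachen, whose cortex library held 9 neutrophils, Il1b lay at 56.5 in the cortex and 69.8 in the IM. Csf3r went the other way there, with 15.4 and 8.38. Of 9 chemoattractant receptor genes tested, 0 passed (median log2 difference 0.54), and of 10 pattern recognition genes, 0 passed (median 0.57). The medians were 0.12 for 14 cytokine and chemokine genes, 0.25 for 9 tertiary granule genes and -0.11 for 17 immediate early and heat shock genes, with 0 passing in each list. Without cells holding C1q UMIs, the cytokine median was -0.12 and the immediate early and heat shock median 0.24, so that both changed sign. The chemoattractant receptor and pattern recognition medians were then 0.53 and 0.40. Between IM and cortex, neither sign changed. The cytokine median there was 0.37 with all cells and 0.19 without those holding C1q UMIs. The immediate early and heat shock median was 0.03 and 0.04. Between medulla and cortex with all cells, the 9 resident macrophage markers had a median of -0.63, with 8 below 0 and 0 passing.

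Genes that the medullary environment is known to induce in kidney cells were also without a call. Of 14 hypoxia and glycolysis genes tested, 0 passed and the median log2 difference was 0.32, or 0.14 without cells holding C1q UMIs. Slc2a1, the glucose transporter GLUT1, lay at 0.464 and 1.83 UMIs per 10000 in the cortex and IM of Bonn and at 0.836, 0.703 and 1.37 in the cortex, OM and IM of Hamburg. Of 6 osmotic response genes, 0 passed and the median was 0.20. Nfat5, the transcription factor of the osmotic response, lay at 0.232 and 1.44 in Bonn and at 0.781, 0.994 and 0.759 in Hamburg. Values this low stand for few UMIs per library.

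The 5 genes with the smallest unadjusted p and a lower value in the medulla were Hspb1, Mmp12, Cstdc5, Ccl5 and Gzma, and the 5 with a higher value were Fxyd2, Mcpt8, Cstdc4, Il4 and Cdc42ep3. Their adjusted p in edgeR's quasi-likelihood test ranged from 0.221 to 0.979. Hspb1 (chr5:135887919-135889563), a small heat shock protein, gave 141 UMIs in 15 of 51 cells of the Hamburg cortex, 62 in 8 of 94 cells of the OM and 6 in 5 of 52 cells of the IM, and 0 in all Bonn neutrophils. Its log2 difference was -2.82 ± 0.39 (SE). Of the 141 cortical UMIs, 136 lay in cells that held C1q UMIs.

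Mmp12 (chr9:7344381-7369499), the macrophage elastase, was likewise found mostly in cells with C1q UMIs. It gave 149, 74 and 19 UMIs in the cortex, OM and IM of Hamburg and 12 and 1 in the cortex and IM of Bonn, and its log2 difference was -2.11 ± 0.33. Of those UMIs, 147, 70 and 14 in Hamburg and all 13 in Bonn came from cells with C1q UMIs. In resident macrophages, Mmp12 lay at 3.53, 3.76 and 10.4 UMIs per 10000 in Aachen, Bonn and Hamburg, and in neutrophils without C1q UMIs at 0.978, 0 and 0.286. Hspb1 reached 11.6 in Hamburg resident macrophages and 0.95 in Hamburg neutrophils without C1q UMIs.

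Several others of these genes rested on single cells. The 28 Gzma UMIs (granzyme A of cytotoxic lymphocytes) came from 1 Hamburg cortex cell, and the 31 Mcpt8 UMIs (a basophil protease) came from the 2 cells described above. Of the Ccl5 UMIs, 85 of 91 in the Hamburg cortex and 22 of 23 in the Bonn cortex came from 1 cell each. Cstdc5, a cystatin-like gene, had 38 of its 56 UMIs in 1 Bonn cortex cell. Fxyd2, a subunit of the tubular sodium pump, gave 37 UMIs in all, and 18 of the 20 Bonn IM UMIs lay in cells with C1q UMIs.

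When all cells with C1q UMIs were left out, 0 genes were higher and 4 lower in the medulla, of 1524 tested. The 4 genes were Hsp90b1, Ccl5, Gzma and Crip1, named here after their values were seen. When the 1 neutrophil called a doublet, a Bonn cortex cell, was left out, 5 genes were lower, namely Hspe1, Hspb1, Mmp12, Gzma and Cstdc5. Leaving out a single neutrophil thus moved the count from 0 to 5.

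Between OM and cortex, 1 gene (0.034%) passed, with 52 at an unadjusted p under 0.05 in edgeR's quasi-likelihood test. The gene was Camp, and it was higher in the OM (fitted log2 difference 9.25, adjusted p = 0.0447). Its 172 UMIs were those of the single Hamburg OM cell described above, which also held 64 C1q UMIs and 256 Cd74 UMIs among 9859 UMIs. All other libraries were at 0, so the level was at least 38.5-fold higher than in the Hamburg cortex (floor of 3 UMIs per library), and the fitted value is no bound. Between OM and IM, 2 genes (0.068%) passed, Ngp (fitted log2 difference 14.77, adjusted p = 0.0272) and Camp (9.25, adjusted p = 0.0452), with 63 genes at an unadjusted p under 0.05. The Ngp UMIs of the OM came from that cell as well. Its fitted difference combined 2 gaps to the cortex. Within Hamburg, the log2 level of Ngp lay 6.25 above the cortex in the OM and 0.55 above it in the IM. In Bonn, which had no OM library in the fit, the IM lay 7.80 below the cortex. The Ngp difference between OM and IM was 7.67 without the dataset block, and 3.16 without cells holding C1q UMIs, where it did not pass (edgeR's quasi-likelihood test, adjusted p = 1). DESeq2 called 0 genes in both comparisons.

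The remaining genes with the smallest unadjusted p were reported by the same rule. Between OM and cortex these were Ltf, Ngp, Cd209a and Il13 (higher) and Gzma, Hspb1, Mmp12, Itgav and Dnajb1 (lower). Between IM and cortex they included Il4, Fxyd2, Ccl7 and Mcpt8 (higher) and Cstdc5, Hspb1, Mmp12, Ngp and Ccl5 (lower). Between OM and IM they included Ltf, Ifi30 and Chil3 (higher in the OM) and Ccl7, Itgav, Dnajb1 and Il4 (lower). None passed, with adjusted p values from 0.181 to 1 in edgeR's quasi-likelihood test. Ltf in the OM rested on the Camp-holding cell for 80 of its 82 UMIs, and Il13 on a basophil marker cell for 35 of 36.

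The last comparison was whether the effect of the medulla differed between neutrophils and monocytes. It used the 6 neutrophil libraries and the monocytes of the same libraries. Of 6418 genes tested, 3 (0.0467%) passed edgeR's quasi-likelihood test of this difference with Benjamini-Hochberg adjustment, and 262 had an unadjusted p under 0.05. DESeq2 called 0 and gave 11 at an unadjusted p under 0.05.

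Isg15 (chr4:156199424-156200818), a ubiquitin-like protein induced by interferon, was 1 of the 3. In neutrophils, its level was 1.28 UMIs per 10000 in the cortex and 5.49 in the IM of Bonn, and 5.16, 7.63 and 6.31 in the cortex, OM and IM of Hamburg. Bonn monocytes held 2.54 and 0.798, and Hamburg monocytes 3.90, 1.44 and 2.25. In Bonn and Hamburg, the medulla was thus higher in neutrophils and lower in monocytes. The difference of the effects was 2.30 ± 0.39 on the log2 scale (SE, edgeR's quasi-likelihood test, adjusted p = 0.00201). Aachen neutrophils went the other way, at 10.3 (cortex, 6 UMIs), 0 (OM) and 4.19 (IM, 3 UMIs). The Aachen cortex and OM libraries, with 9 neutrophils and 1, were not in the fit. Aachen monocytes were at 1.42 (cortex), 1.62 (OM) and 0.166 (IM). In the monocytes of these 6 libraries alone, Isg15 had a log2 difference of -1.41 between medulla and cortex. That fit, too, held 1 OM library. In the Bonn cortex, 1 monocyte held 57 of the 273 Isg15 UMIs, and in the Hamburg cortex 1 monocyte held 44 of 158. In neutrophils alone, Isg15 had a log2 difference of 0.91 ± 0.40 and did not pass (edgeR's quasi-likelihood test, adjusted p = 0.979). Without cells holding C1q UMIs, the difference between the cell types was 2.70 and did not pass (adjusted p = 0.0878 in the same test).

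Hspb1 had the opposite sign, with a difference of -3.86 ± 0.62 (edgeR's quasi-likelihood test, adjusted p = 0.00128). In monocytes, it was found at 0.785, 2.66 and 0.368 UMIs per 10000 in the cortex, OM and IM of Hamburg, and the neutrophil UMIs are given above. Retnlg differed by 4.56 ± 0.81 (adjusted p = 0.00273). Its neutrophil level was 34.2 and 41.2 UMIs per 10000 in the cortex and IM of Bonn. In monocytes, 26 UMIs lay in 2 cells of the Hamburg cortex and 13 in 4 cells of the Hamburg OM, with 0 in the other libraries. The fitted difference depends on the prior count and is no bound.

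The other genes that the rule named were Acod1, Ero1l and Oasl2, with a higher effect in neutrophils, and Thbs1, Chil3, Hspe1 and Lilra5, with a lower one. Their adjusted p ranged from 0.0764 to 0.373 in edgeR's quasi-likelihood test. Acod1, which makes the antimicrobial metabolite itaconate, differed by 2.48 ± 0.58, and Oasl2, an interferon-induced gene, by 1.86 ± 0.44. Of 17 interferon genes tested, 1 passed, Isg15, with a median of 0.89 over the list and -0.05 over all genes tested.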

How the data were processed

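The authors mapped reads to mm10 with Cell Ranger and clustered the cells in Seurat, keeping cells with few to moderate gene numbers and low mitochondrial shares. They deposited a table of 32886 genes by 20266 cells with the compartment, cluster and facility of each cell. The deposited values were taken to be estimated counts of UMIs. They were whole in Aachen and Bonn neutrophils, but only 0.194% of the nonzero values were whole in Hamburg neutrophils. How this arose is not given in the sources used here, so it is unknown whether the Hamburg values were corrected for background, and low shares there, C1q shares included, may not compare with those of Aachen and Bonn. Values were rounded for tests and for counts of UMIs per cell, and left as they were for levels.

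Neutrophil depth per library ranged from 1091 to 352812 UMIs. Levels are UMIs of a gene per 10000 UMIs of the summed cells. UMIs were summed per library and cell type (libraries with at least 10 neutrophils) and tested with edgeR 4.0.16 (quasi-likelihood, TMM, filterByExpr, dataset as block, Benjamini-Hochberg, threshold 0.05), with DESeq2 1.42.0 as an alternative, in R 4.3.3, after the script was tested on simulated data. The SE is the log2 difference divided by the root of the F statistic. Shares were compared by exact permutation within datasets (scipy 1.17.1), adjusted over 4 tests. The pairing of libraries comes from the facility of each cell. Doublets were scored per library by simulated doublets and nearest neighbours, which called 402 cells (1.98%) and 1 neutrophil. Barcodes were compared: 219 occurred in more than 1 library, 2 neutrophils among their cells. Of 286 listed genes in 30 lists, 2 were not in the table. Gene positions are those of GENCODE on mm10.

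The members and gene lists were chosen with earlier results of these data known. Genes were named as up to 20 passing genes by smallest p and, where under 10 passed, the 5 smallest unadjusted p in each direction. For levels, up to 25 genes with the largest ratio to monocytes, at least 5 UMIs per 10000 and the same direction in every dataset were named, and up to 10 the other way. Genes of the lists were named as members of their list, and others are marked as named after their values were seen. Alternatives were other normalization, tool, filter, cell minimum, rounding, doublet removal and block, and each dataset left out. Sequences of proteins and promoters were not used here. Some genes that the rule names are not reported here.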

Additional observations from a re-analysis of the deposited data

Results flagged for a closer look

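The effect of the medulla differed between neutrophils and monocytes for 3 genes, by edgeR's quasi-likelihood test of the difference itself. The log2 differences were -3.86 for Hspb1, 2.30 for Isg15 and 4.56 for Retnlg. For Isg15, the neutrophil level was higher in the medulla in Bonn and Hamburg and the monocyte level was lower in both. For Hspb1, 136 of the 141 neutrophil UMIs of the Hamburg cortex lay in cells that held C1q UMIs, and for Retnlg the monocyte UMIs lay in 6 cells. Without cells that held C1q UMIs, an alternative added after seeing the data, 0 of 3913 genes passed edgeR's quasi-likelihood test, with 186 at an unadjusted p under 0.05. The differences themselves were then -4.73 for Hspb1, 2.70 for Isg15 and 4.04 for Retnlg (adjusted p = 0.963, 0.0878 and 0.374 in that test).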

How the results depend on the processing

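Calls in neutrophils between medulla and cortex, OM and cortex, IM and cortex, and OM and IM numbered 0, 1, 0 and 2, and 3 genes differed in effect from monocytes. In that order, the counts were 6, 6, 14, 6 and 3 with no filter on low counts, 6, 5, 9, 3 and 5 with libraries of at least 5 cells, and 5, 4, 4, 3 and 3 without called doublets. DESeq2 gave 0 in all of them, while its size factors gave 0, 0, 0, 0 and 4 and counts rounded up 0, 0, 0, 0 and 3. After seeing the data, libraries of at least 4 cells (3, 0, 3, 0 and 2) and leaving out cells with C1q UMIs (4, 0, 6, 3 and 0) were added. Without the replicate block of datasets, that is, without the pairing, the counts were 8, 9, 12, 11 and 0. Leaving out Aachen gave 0, 1, 0, 2 and 3, but its single library carries no information on the compartments, so this is no check of stability. Libraries of at least 20 cells and fits without Bonn or without Hamburg could not be run for lack of residual degrees of freedom. The cause of these differences was not tested.

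Ngp between OM and cortex reversed to -0.76 without the block and to -3.47 without cells holding C1q UMIs, where Dnajb1 reversed to 0.77 between OM and cortex and to 0.73 between OM and IM. The share difference between medulla and cortex was -0.38 points of myeloid cells and -0.068 as log2 of the share, and 0.140 to 0.823 points with 1 dataset left out. Neutrophils of neutrophils and monocytes differed by 2.70 points without those holding C1q UMIs, and by -6.68 to 1.39 with 1 dataset left out.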
